A study of Homo sapiens with 2 samples.

Results

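The collagen genes were taken as the protein-coding genes whose symbol is COL, a type number, A and a chain number. This rule gave 44 genes of the 62700 in the gene table. Part of the reason for choosing the family was that COL3A1 had stood out among the genes most apart between the 2 libraries of the series, so differences between the libraries are given below as a description, without a test. The cells were TCam-2, an established seminoma line from a human testicular cancer, and both libraries came from cells transduced with DDX53-FLAG, a tagged copy of a gene for an RNA helicase. The series holds 1 group of 2 replicates, a design in which GFP-FLAG and untransduced cells served as controls. Those controls were not analysed here, so no effect of DDX53 was computed. The labels do not say whether the replicates are separate cultures, and the spread between them may be technical.

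Collagens are proteins of the extracellular matrix built from glycine-rich repeat chains, which wind around each other in a triple helix. Each chain is encoded by its own gene, and most types need particular partner chains to form a trimer. Fibrillar collagens give connective tissue its tensile strength, type IV collagen forms the sheet-like network of basement membranes, and the remaining classes decorate fibrils, span the cell membrane or form finer filaments. In the testis, a basement membrane containing type IV collagen surrounds the seminiferous tubules in which germ cells lie, and fibrillar collagens lie in the tissue around it.

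The libraries held 24137664 reads in genes (replicate 1) and 22198929 reads (replicate 2). Levels per gene are given in CPM (counts of reads per 1000000 reads in genes). Detection required at least 1 CPM in each of the libraries. A gene without a read could still hold up to 3 reads, or 0.124 CPM in the first library and 0.135 CPM in the second. Intervals are 95% Wilson intervals from the reads of 1 library, which cover counting error only and no spread between libraries. The reads carry no molecular identifiers. The marker genes were added after their values were seen, so their counts are a description and not a test of cell type. All 10 listed markers of seminoma and germ cells were detected, with a summed 5609 and 5596 CPM in replicates 1 and 2. Of 10 markers of fibroblasts and stroma, 4 were detected (FBLN1, THY1, LUM and TAGLN), with FBLN1 the highest at 92.0 and 83.8 CPM. PDGFRB reached 1 CPM in replicate 1 only (31 and 18 reads) and POSTN in replicate 2 only (7 and 30 reads). FAP had no read, DCN had 1 read in each library and PDGFRA had 8 and 4 reads. Of the 5 endothelial markers, 3 were detected (TEK, VWF and CDH5), with TEK the highest at 12.2 and 13.2 CPM. PECAM1 had 0 and 6 reads and KDR had 6 and 4. Of the 6 endoderm markers, 3 were detected (GATA4, GATA6 and FOXA2), with GATA4 the highest at 39.8 and 38.5 CPM. AFP had no read.

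Of the 44 collagen genes, 25 were detected in both libraries, 3 reached 1 CPM in a single library and 16 in neither. The detected share, 56.8%, stood beside 61.7% of all protein-coding genes. Together the family took 0.333% of the reads in replicate 1 (interval, 0.331 to 0.336) and 0.353% in replicate 2 (interval, 0.350 to 0.355). COL4A2, COL4A1, COL1A2, COL23A1 and COL18A1 were the 5 highest by CPM. COL4A2 alone held 21.3% of the collagen CPM in replicate 1 and 23.2% in replicate 2. By TPM, which divides by transcript length and so allows levels of different genes to be compared, the 5 highest genes by the mean of the libraries were COL9A3, COL4A2, COL23A1, COL1A2 and COL4A1. The first 3 of these did not keep one order: COL23A1 was highest in replicate 1 with 202 TPM, and COL4A2 in replicate 2 with 207 TPM. In transcripts annotated as protein-coding alone, replicate 2 had 127 TPM for COL4A2, 190 for COL23A1 and 189 for COL9A3. The basement membrane class was the largest by either measure, with 36.7% and 38.8% of the collagen CPM and 27.5% and 29.3% of the collagen TPM.

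**Figure D1:**
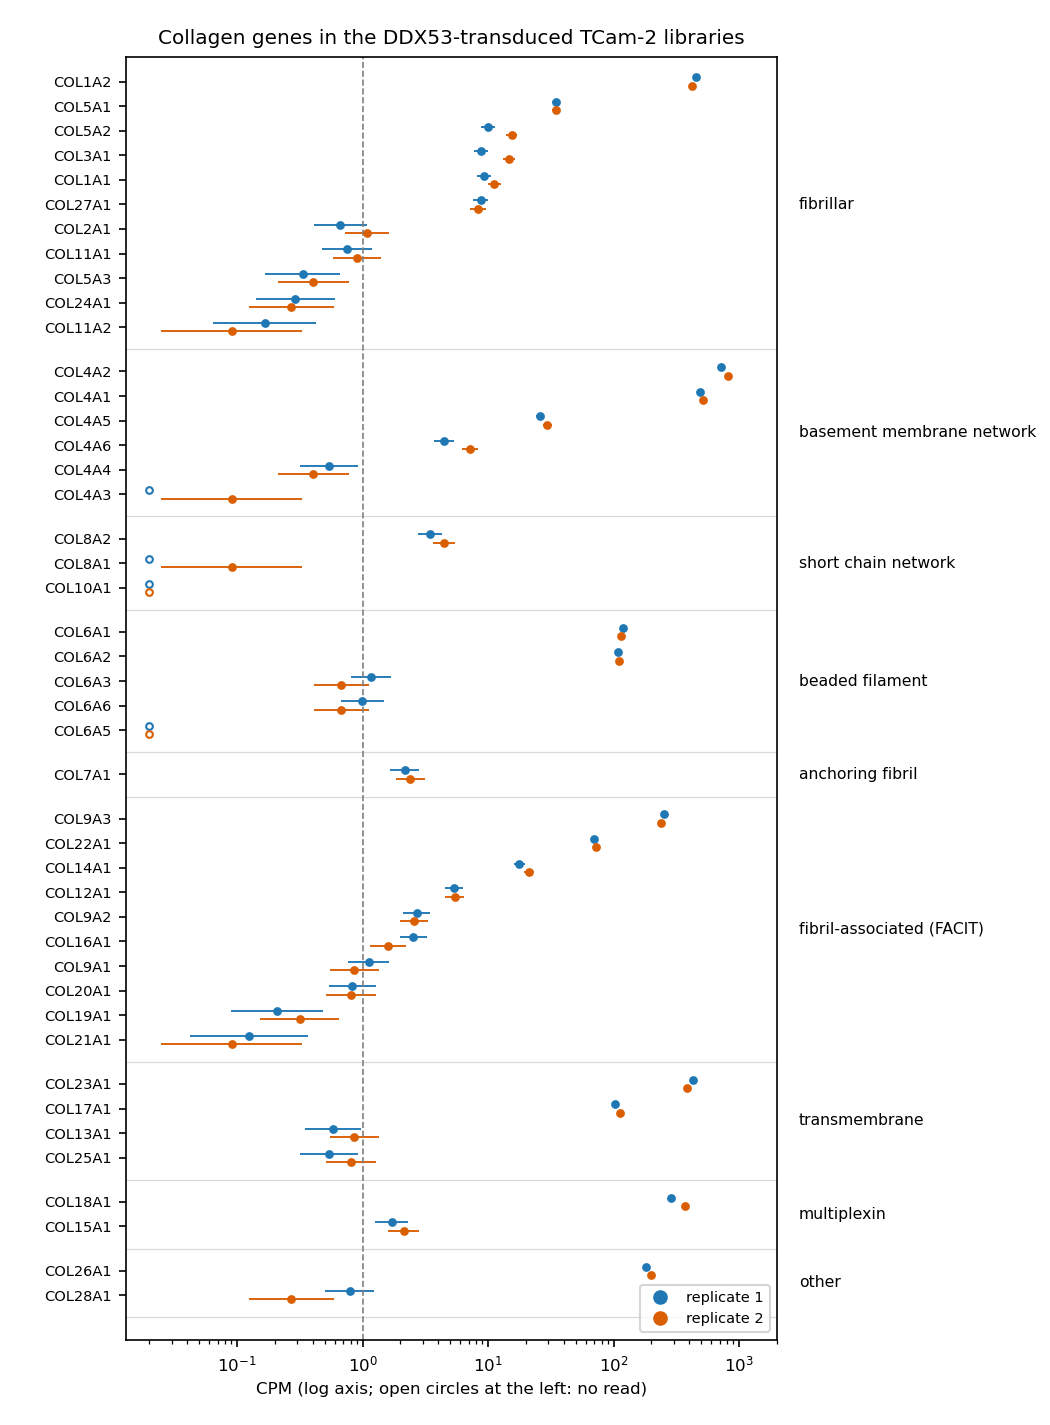
Level of each of the 44 collagen genes in CPM on a log axis, grouped by class, with replicate 1 in blue and replicate 2 in orange. Bars are 95% Wilson intervals (counting error only), the dashed line marks the detection threshold of 1 CPM, and open circles mark libraries without a read. Most classes hold 1 or a few genes far above the rest, such as COL1A2 among the fibrillar genes and COL9A3 among the fibril-associated genes.

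The type IV genes lie in head-to-head pairs that are read outward from a short stretch of shared promoter DNA, and the 3 pairs were found at very different levels. Windows of 250 bases before to 50 bases after the start site were taken from RefSeq (GRCh38.p14). They are shown 5′ to 3′ on the plus strand for the plus-strand gene of each pair. The window of the strongly expressed pair is thus set beside those of the low pairs. Capitals mark every CCAAT box (CCAAT) and GC box (GGGCGG), searched on both strands. The windows are chr13:110307034-110307333 for COL4A2, chr2:227164374-227164673 for COL4A3 and chrX:108439588-108439887 for COL4A5.
COL4A2: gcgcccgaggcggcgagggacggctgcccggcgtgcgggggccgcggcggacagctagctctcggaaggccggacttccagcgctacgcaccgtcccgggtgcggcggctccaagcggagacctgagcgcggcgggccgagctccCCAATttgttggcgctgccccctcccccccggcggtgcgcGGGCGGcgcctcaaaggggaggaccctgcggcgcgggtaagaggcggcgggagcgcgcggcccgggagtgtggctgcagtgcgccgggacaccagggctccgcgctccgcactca
COL4A3: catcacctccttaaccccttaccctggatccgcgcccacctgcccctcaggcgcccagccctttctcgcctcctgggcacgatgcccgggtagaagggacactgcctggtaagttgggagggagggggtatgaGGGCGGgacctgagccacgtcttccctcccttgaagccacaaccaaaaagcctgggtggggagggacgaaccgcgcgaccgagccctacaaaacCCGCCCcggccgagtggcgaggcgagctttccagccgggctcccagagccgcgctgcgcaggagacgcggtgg
COL4A5: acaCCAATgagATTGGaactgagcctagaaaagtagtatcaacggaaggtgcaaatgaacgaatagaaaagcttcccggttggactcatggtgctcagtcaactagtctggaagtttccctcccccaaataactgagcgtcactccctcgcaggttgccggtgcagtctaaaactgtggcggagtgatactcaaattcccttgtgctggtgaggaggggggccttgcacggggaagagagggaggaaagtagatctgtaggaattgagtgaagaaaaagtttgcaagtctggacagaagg
The start sites of COL4A1 and COL4A2 lie 127 bases apart, those of COL4A4 and COL4A3 419 bases, and those of COL4A6 and COL4A5 380 bases. The COL4A2 window holds 1 CCAAT box 105 bases and 1 GC box 65 bases before the start site. The COL4A3 window holds 2 GC boxes and the COL4A5 window 2 CCAAT boxes, and no matches overlap. Only the COL4A2 window reaches the start site of its partner. The COL4A3 and COL4A5 windows hold part of the stretch between the start sites. The COL4A6 window, which is not printed, holds 3 CCAAT boxes, and not all of them lie in the COL4A5 window. Of all 35116 RefSeq windows of this length, 34.6% hold a CCAAT box and 45.0% a GC box. G and C made up 77.7% of the COL4A2 window, 67.7% of the COL4A3 window and 49.3% of the COL4A5 window, against a median of 58.7% over all windows. These matches describe the letters only.

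COL4A1 and COL4A2 encode the chains of the common basement membrane network and were among the most abundant collagen messages. COL4A2 (ENSG00000134871.19, chromosome 13, 110305812 to 110513209, plus strand) had 710 CPM in replicate 1 and 816 CPM in replicate 2, a mean of 763 ± 74.9 (SD, n = 2), and was number 156 of all genes. COL4A1 (ENSG00000187498.16, chromosome 13, 110148963 to 110307233, minus strand) had 483 and 513 CPM, a mean of 498 ± 21.4 (SD, n = 2). Both genes were higher in replicate 2, and for each the intervals of the libraries did not overlap. Per length and over all transcripts, COL4A2 exceeded COL4A1 in both libraries: 187 against 121 TPM in replicate 1 and 207 against 129 TPM in replicate 2, a TPM ratio of 1.57 ± 0.0495 (SD, n = 2). Transcripts annotated with a retained intron held 47.1% and 38.8% of the TPM of COL4A2, and 19.9% and 16.0% of that of COL4A1. In transcripts annotated as protein-coding alone, COL4A2 and COL4A1 were nearly equal in replicate 1, with 97.5 against 97.3 TPM. In replicate 2 COL4A2 stayed higher in these transcripts. Between the full-length transcripts COL4A2-201 and COL4A1-201, that of COL4A2 was higher in both libraries.

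COL4A5 and COL4A6, whose chains combine in other basement membranes, were lower. COL4A5 (chromosome X, 108439844 to 108697545, plus strand) had 25.9 and 29.6 CPM, and its intervals overlapped. COL4A6 (chromosome X, 108155607 to 108439497, minus strand) had 4.43 and 7.16 CPM, higher in replicate 2 with intervals apart. COL4A5 stood above COL4A6 in TPM by 5.10 times in replicate 1 and 3.86 times in replicate 2. The chains that join COL4A5 in the kidney glomerulus, COL4A3 and COL4A4, were below detection: COL4A3 (chromosome 2, 227164565 to 227314792) had 0 and 2 reads and COL4A4 (chromosome 2, 227002711 to 227164453) had 13 and 9 reads.

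Among the 11 fibrillar genes, 6 were detected and 1 dominated. COL1A2 (ENSG00000164692.19, chromosome 7, 94394561 to 94431232, plus strand), the second chain of type I collagen, had 455 CPM in replicate 1 and 424 CPM in replicate 2, a mean of 439 ± 22.2 (SD, n = 2). COL1A1 (ENSG00000108821.14, chromosome 17, 50183289 to 50201632, minus strand), the main chain of the same collagen, had 9.28 CPM (224 reads) and 11.2 CPM (249 reads). In tissue, type I trimers carry more COL1A1 than COL1A2 chains, so the messages stood in the opposite order to the chains of that trimer. In TPM, COL1A2 had 151 against 2.35 for COL1A1 in replicate 1 and 128 against 4.34 in replicate 2, ratios of 64.5 and 29.6. The TPM of COL1A1 includes a 549-base partial transcript, with 0.264 in replicate 1 and 1.89 in replicate 2. That of COL1A2 includes 44.4 and 25.9 TPM in transcripts annotated with a retained intron. In the transcripts that span the whole gene, COL1A2 had 107 against 2.08 TPM in replicate 1 and 102 against 2.44 in replicate 2. With CPM per kilobase of the longest transcript in place of TPM, the ratios were 55.1 and 42.4. No library came near equal levels.

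COL5A1 and COL5A2 encode chains of type V collagen, which nucleates fibrils. COL5A1 had 34.8 and 34.4 CPM and differed little between the libraries. COL5A2 had 9.94 CPM (interval, 8.76 to 11.3) in replicate 1 and 15.4 CPM (interval, 13.8 to 17.1) in replicate 2. In TPM COL5A1 was 2.57 times COL5A2 in replicate 1 and 1.82 times in replicate 2.

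COL3A1 (ENSG00000168542.17, chromosome 2, 188974320 to 189012746, plus strand), a fibrillar collagen of distensible tissues, had 212 reads or 8.78 CPM (interval, 7.68 to 10.0) in replicate 1 and 325 reads or 14.6 CPM (interval, 13.1 to 16.3) in replicate 2. Replicate 2 was thus 1.67 times replicate 1, and the TPM moved alike, from 2.21 to 3.58. COL5A2 lies on the opposite strand 19149 bases beyond the 3′ end of COL3A1, with 0 annotated genes between them, and was 1.54 times higher in replicate 2. Fibroblast markers moved in both directions between the libraries. LUM went from 9.28 to 13.1 CPM and POSTN from 7 to 30 reads, while FBLN1 went from 92.0 to 83.8 CPM. Intervals were apart for each of these and overlapped for the other listed fibroblast markers. The summed CPM of the 10 fibroblast markers, most of it from FBLN1, was 139 in replicate 1 and 138 in replicate 2. FAP had 0 reads in both. The part of these markers in the difference of COL3A1 was not tested. In bulk RNA, a change in the number of cells of a kind and a change in RNA per cell cannot be told apart.

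The remaining fibrillar genes were low. COL27A1, a fibrillar collagen gene of cartilage, had 8.70 and 8.33 CPM. COL2A1, the cartilage fibril gene, crossed the threshold in replicate 2 only, with 16 and 24 reads. COL11A1 had 18 and 20 reads, COL5A3 had 8 and 9, COL24A1 had 7 and 6, and COL11A2 had 4 and 2. The intervals of the libraries overlapped for each of them.

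Of the 5 genes of type VI collagen, which forms beaded filaments, only COL6A1 and COL6A2 were detected. COL6A1 had 118 and 114 CPM and COL6A2 had 109 and 110 CPM, nearly equal in the libraries. Their genes are neighbours on the plus strand of chromosome 21, 93046 bases apart with 0 protein-coding genes between them. In TPM COL6A2 was 1.26 ± 0.0383 times COL6A1 (SD, n = 2). COL6A3, whose chain completes the usual type VI trimer, had 28 and 15 reads, and 0.0948 and 0.0411 TPM against 39.0 and 38.4 for COL6A1. COL6A6 had 24 and 15 reads, and COL6A5 had no read in either library.

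A similar imbalance was present in type IX collagen, a fibril-associated heterotrimer of cartilage. COL9A3 (ENSG00000092758.18, chromosome 20, 62816244 to 62841159, plus strand) had 249 and 240 CPM, a mean of 245 ± 6.86 (SD, n = 2), and with 196 and 201 TPM it was the highest collagen gene by mean TPM. COL9A2 had 2.69 and 2.57 CPM and COL9A1 had 1.12 and 0.856 CPM. COL9A3 exceeded COL9A2 by 127 times in TPM in replicate 1 and 78.2 times in replicate 2. The TPM of COL9A1 is uncertain, since its CPM was above the value its TPM predicts by 3.34 on the log2 scale in replicate 1 and 2.98 in replicate 2.

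**Figure D2:**
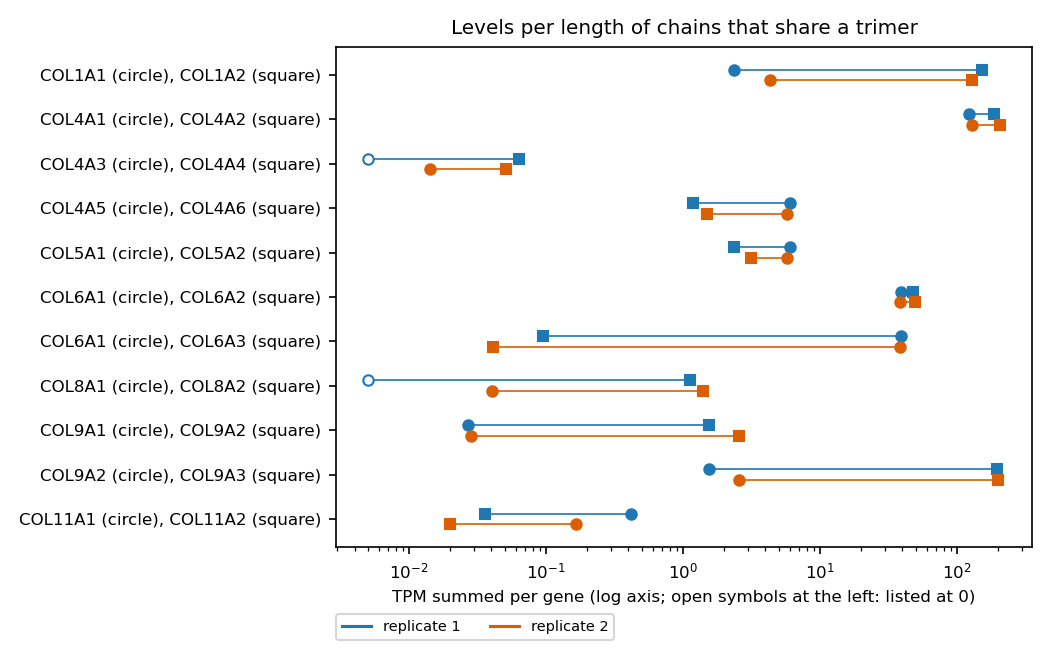
TPM summed per gene (log axis) of collagen genes whose chains are known to share a trimer or a type. A circle is the first named gene, a square the second, blue is replicate 1 and orange is replicate 2, and open symbols are listed at 0. The COL4A1 and COL4A2 symbols and the COL6A1 and COL6A2 symbols lie close together, whereas COL1A2, COL9A3 and COL6A1 lie far from COL1A1, COL9A2 and COL6A3.

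Among the other fibril-associated genes, COL22A1, known from tissue junctions such as that of muscle and tendon, had 69.8 and 72.3 CPM. COL14A1 had 17.7 and 21.0 CPM and COL12A1 had 5.34 and 5.41 CPM. Both encode long fibril-associated chains of dense connective tissue. COL16A1 had 2.53 CPM (interval, 1.97 to 3.25) in replicate 1 and 1.58 CPM (interval, 1.13 to 2.19) in replicate 2, the most negative difference among detected members, with intervals that overlapped. COL20A1 had 20 and 18 reads, COL19A1 had 5 and 7, and COL21A1 had 3 and 2.

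The transmembrane class was led by COL23A1 (ENSG00000050767.18, chromosome 5, 178237618 to 178590555, minus strand). It had 426 CPM in replicate 1 and 386 CPM in replicate 2, a mean of 406 ± 28.2 (SD, n = 2), and was lower in replicate 2 with intervals apart. COL17A1, a component of the hemidesmosomes that anchor epithelia, had 102 and 112 CPM, higher in replicate 2 with intervals apart. COL13A1 (14 and 19 reads) and COL25A1 (13 and 18 reads) were below detection. Thus 2 of the 4 membrane-bound collagens were expressed above 100 CPM and the other two stayed under 1 CPM.

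The multiplexins carry C-terminal domains that can be cleaved off, endostatin in the case of COL18A1. COL18A1 (ENSG00000182871.16, chromosome 21, 45405137 to 45513720, plus strand) had 283 CPM (interval, 277 to 290) in replicate 1 and 372 CPM (interval, 364 to 380) in replicate 2, 1.31 times higher. Its TPM over matched transcripts did not show this, with 11.97 and 12.77. The CPM was above the prediction from TPM by 3.42 on the log2 scale in replicate 1 and 3.63 in replicate 2, and 16.4% of its exonic length overlaps exons of genes on the opposite strand. Its level per length is therefore uncertain. Of the 22 collagen genes with at least 1 CPM on average and 1 TPM in both libraries, COL18A1 was the only one more than 4-fold from its prediction. COL15A1, the other multiplexin, had 1.70 and 2.12 CPM.

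Outside these classes, COL26A1, which encodes a short protein with collagen-like stretches, had 182 and 198 CPM, higher in replicate 2 with intervals apart. COL7A1, the gene of the anchoring fibrils of skin, had 2.15 and 2.39 CPM. COL8A2, a short-chain network collagen of the cornea, had 3.44 and 4.46 CPM, while its partner COL8A1 had 0 and 2 reads. COL10A1, a marker of hypertrophic cartilage, had no read in either library, and COL28A1 had 19 and 6 reads. Near the threshold, COL9A1 and COL6A3 reached 1 CPM in replicate 1 only and COL2A1 in replicate 2 only. COL6A6, at 0.994 CPM in replicate 1, fell just short, and COL15A1 was the gene with the lowest mean to pass in both libraries. The lowest single value among the genes that passed was 1.58 CPM, for COL16A1 in replicate 2.

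RefSeq promoter windows were found for 32 of the 44 genes. They were not matched for COL14A1, COL1A1, COL1A2, COL20A1, COL22A1, COL2A1, COL3A1, COL5A2, COL6A1, COL6A5, COL8A1 and COL9A3. Among the 17 detected genes with a window, the median observed to expected ratio of CG dinucleotides was 0.767, and it ranged from 0.0820 (COL17A1) to 1.08 (COL15A1). Among the 15 genes not detected the median was 0.537 (range, 0.0947 to 1.104), and over all RefSeq windows it was 0.579. A GC box was present in 13 of the 17 and 5 of the 15 windows, beside 45.0% of all windows. A CCAAT box was present in 5 of the 17 and 5 of the 15, beside 34.6% of all windows. The COL4A1 and COL4A2 windows, both among the 17, share 226 bases. The COL18A1 window, also among the 17, belongs to a start site 28 bases from the annotated start of the gene. The matched COL18A1 transcript with the most TPM starts 85138 bases inside the gene. Among the 15, the COL6A6 window belongs to a start site 43157 bases from the annotated start of the gene. It holds both a GC box and a TATA box. COL17A1, with 107 ± 6.64 CPM (SD, n = 2), had the window lowest in G and C among the detected genes, at 40.7%. A TATA box (TATAAA, searched on both strands) was present in the windows of COL17A1, COL6A2 and COL7A1 among the detected genes, in 3 of the 15 windows of genes not detected and in 11.5% of all windows. For the ratio of CG dinucleotides, the ranges of detected and undetected genes overlapped almost completely. For G and C content the overlap was partial. The median was 73.3% in detected genes (range, 40.7 to 86.7) and 64% in genes not detected (range, 38 to 74).

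The transcript table shows which forms of the collagen messages were counted. Transcript quantification divides reads between transcripts that share sequence, and the depth behind a TPM value is unknown, so no interval is given. COL1A2-201, a transcript of 52 exons that spans the whole gene, held 70.7% of the TPM of COL1A2 in replicate 1 and 79.8% in replicate 2. COL1A2-203, a 1123-base transcript annotated with a retained intron, held 27.9% and 18.9%. In COL4A2 the full-length COL4A2-201 held 51.1% and 59.8%, and the retained-intron transcript COL4A2-216, of 3630 bases near the 3′ end, held 47.0% and 38.6%. In COL4A1 retained-intron transcripts held 19.9% and 16.0%. The retained-intron share was lower in replicate 2 in these 3 genes, but not in every collagen gene: it went from 5.66% to 8.55% in COL18A1, from 1.58% to 1.82% in COL9A3 and from 0.310% to 1.17% in COL4A5. In TPM the full-length transcript of COL4A2 went from 95.5 to 124 while its retained-intron form went from 87.9 to 80.0.

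Short annotated fragments also took large shares. COL17A1-204, a 537-base transcript of 4 exons at the 3′ end, held 37.0% and 39.6% of the TPM of COL17A1, beside 59.1% and 56.1% in the long COL17A1-209. COL22A1-207, a 554-base transcript of 2 exons inside the gene, held 43.8% and 41.1%, more than the 65-exon COL22A1-201 with 38.8% and 34.2%. Since TPM is per length, a short transcript needs few reads for a large share. COL26A1 was split between COL26A1-201 (51.8% and 53.4%) and COL26A1-203 (48.2% and 46.2%), whose start sites lie 57 bases apart. COL23A1 and COL9A3 were nearly all in 1 form, with 99.8% and 99.7% in COL23A1-201 and 96.7% and 94.2% in COL9A3-215. In COL18A1 the matched transcript with the most TPM was COL18A1-201, which starts 85138 bases inside the annotated gene and held 90.7% and 85.05%.

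**Figure D3:**
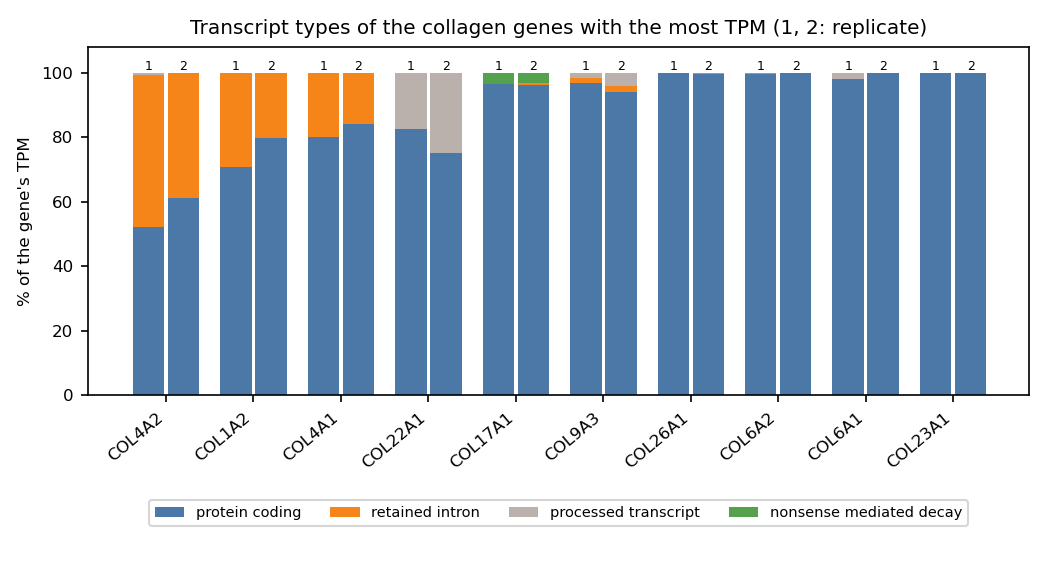
Share of each gene's TPM by annotated transcript type, for the 10 collagen genes with the most TPM and for replicates 1 and 2 in turn. Retained-intron transcripts (orange) take 47.1% and 38.8% in COL4A2 and 29.3% and 20.2% in COL1A2, and under 1% in COL23A1, COL26A1, COL6A1 and COL6A2.

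The leading transcript changed between the libraries in 3 of the 22 collagen genes with at least 1 TPM and more than 1 transcript: COL9A2, COL4A5 and COL4A6. Among all 11758 genes compared in this way, 11.7% changed. In COL4A5 the transcripts COL4A5-202 and COL4A5-201 held 51.5% and 28.9% in replicate 1 and 46.2% and 51.4% in replicate 2. COL4A6 had under 2 TPM in all, and its leading transcripts moved between 0 and 80.4% of that. With at least 5 TPM, 1 of 13 collagen genes changed (COL4A5), against 8.49% of all genes.

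Across the family, the libraries were compared by the log2 difference of CPM + 1, taken as replicate 2 minus replicate 1, among genes whose mean CPM was 1 or higher. With the added 1 CPM, changes of low genes come out too small. The 25 collagen genes that passed, the same 25 that were detected, had a median difference of 0.10, against -0.0077 over all 13898 genes, and ranged from -0.45 (COL16A1) to 0.68 (COL3A1). Of them 17 were higher and 8 lower in replicate 2, beside 6643 higher and 7255 lower among all 13898 genes. Intervals of the libraries did not overlap for 10 of the 25, where 13.9% of all genes were so. A difference of 0.5 or more in size was reached by 3, COL3A1, COL4A6 and COL5A2, where 1.59% of all genes did so. All 3 were higher in replicate 2 (0.741% of all genes) and none were lower (0.849% of all genes). On the TPM scale with a pseudocount of 1, COL3A1 remained past this size with 0.52, while COL5A2 had 0.30 and COL4A6 had 0.19. Because this contrast was used in choosing the family, nothing is read from these counts, and without COL3A1 the median was 0.095.

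Among the 10 with separate intervals, COL3A1, COL5A2, COL4A6, COL18A1, COL4A2, COL4A1, COL17A1 and COL26A1 were higher in replicate 2. The background share of such genes was 6.37%. COL1A2 and COL23A1 were lower, where 7.54% of all genes were lower. The log2 differences of the more abundant of these genes were small: 0.20 for COL4A2, 0.13 for COL17A1, 0.12 for COL26A1, 0.09 for COL4A1, -0.10 for COL1A2 and -0.14 for COL23A1. With 99% intervals, those of COL17A1 overlapped. By class, the 4 detected type IV genes were all higher in replicate 2 by CPM, with a median of 0.19, although COL4A5 had a log2 difference of -0.06 in TPM. The 6 detected fibrillar genes were divided 3 against 3 by sign, but intervals overlapped for COL1A1, COL5A1 and COL27A1. COL1A1 and COL1A2 had log2 differences of 0.25 and -0.10.

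**Figure D4:**
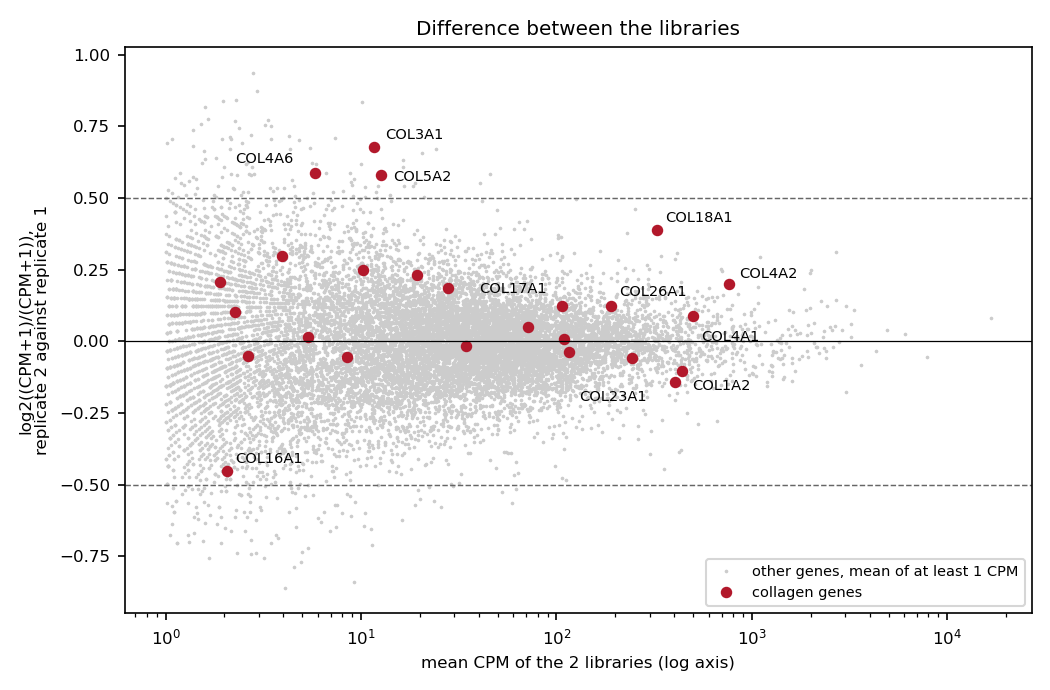
Log2 difference between the libraries (replicate 2 against replicate 1, pseudocount 1 CPM) against the mean CPM on a log axis, for the collagen genes (red) and other genes at 1 CPM or higher on average (grey). Dashed lines mark differences of 0.5; COL3A1, COL5A2 and COL4A6 lie above the upper line and no collagen gene lies below the lower line, where COL16A1 comes closest at -0.45.

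Genes that make, export, bind or break down collagen were described with 7 lists of 77 genes, of which 64 were detected. In chain modification and folding, all 19 genes were detected. P4HB, a subunit of the prolyl hydroxylase that stabilises the helix, was the highest with 1558 and 1584 CPM, and P4HA3, one of its catalytic partners, the lowest with 1.57 and 2.03 CPM. SERPINH1, the collagen chaperone HSP47, had 931 and 886 CPM, lower in replicate 2 with intervals apart. P4HA1, a catalytic subunit, went from 76.0 to 93.0 CPM and P3H2, a prolyl 3-hydroxylase, from 65.2 to 57.8 CPM, also with intervals apart. All 8 export genes were detected, from MIA2, a partner of MIA3, at 18.9 and 20.0 CPM to SEC13, a coat subunit, at 153 and 146 CPM. MIA3, also called TANGO1, which loads procollagen at exit sites, went from 92.6 to 79.6 CPM and SEC31A, an outer coat subunit, from 135 to 121 CPM, both lower with intervals apart.

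Of 8 genes of propeptide removal, 6 were detected. ADAMTS2, the N-proteinase of fibrillar procollagens, led with 69.4 and 71.2 CPM and ADAMTS3 was the lowest with 2.24 and 2.03 CPM. TLL1, a C-proteinase, had 1.99 and 3.29 CPM, a log2 difference of 0.52 with overlapping intervals, and TLL2 had no read. Of 6 cross-linking genes, 4 were detected. PXDN, the peroxidase that links type IV collagen, was the highest with 278 and 284 CPM and LOXL1 the lowest with 10.9 and 12.8 CPM. LOXL2, a lysyl oxidase, went from 88.5 to 76.4 CPM with intervals apart, and LOX itself had 6 reads in each library.

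Of 10 collagen receptor genes, 5 were detected. They ranged from ITGA1 at 3.65 and 3.78 CPM to ITGB1, the shared beta chain of collagen-binding integrins, at 577 and 590 CPM. The collagen-binding kinase DDR1 had 88.2 and 90.7 CPM, while DDR2 had 2 and 5 reads. Of 10 genes of breakdown and its inhibition, 7 were detected. TIMP2, a metalloproteinase inhibitor, was the highest with 166 and 184 CPM, higher in replicate 2, and TIMP1, another, went from 124 to 106 CPM, both with intervals apart. TIMP3 was the lowest detected, with 3.48 and 3.60 CPM, and the collagenase gene MMP8 had no read.

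Of 16 partners of type IV collagen in basement membranes, 15 were detected, LAMA3 being the exception with 18 and 17 reads. LAMC1, the common laminin gamma chain, was the highest with 1385 and 1329 CPM, and LAMB3 the lowest detected with 1.49 and 1.67 CPM. SPARC, a collagen-binding glycoprotein, went from 984 to 1206 CPM and AGRN, a heparan sulfate proteoglycan, from 291 to 311 CPM, both higher in replicate 2. LAMA1 went from 38.5 to 29.7 CPM, and LAMC1 was also lower. Each of these 4 differences had separate intervals. Over all 7 lists the median log2 difference of the 64 detected genes was 0.025, with 5 genes higher and 8 lower by separate intervals, beside 6.37% and 7.54% of all genes. The number past a difference of 0.5 was 1, beside 1.59% of all genes.

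**Figure D5:**
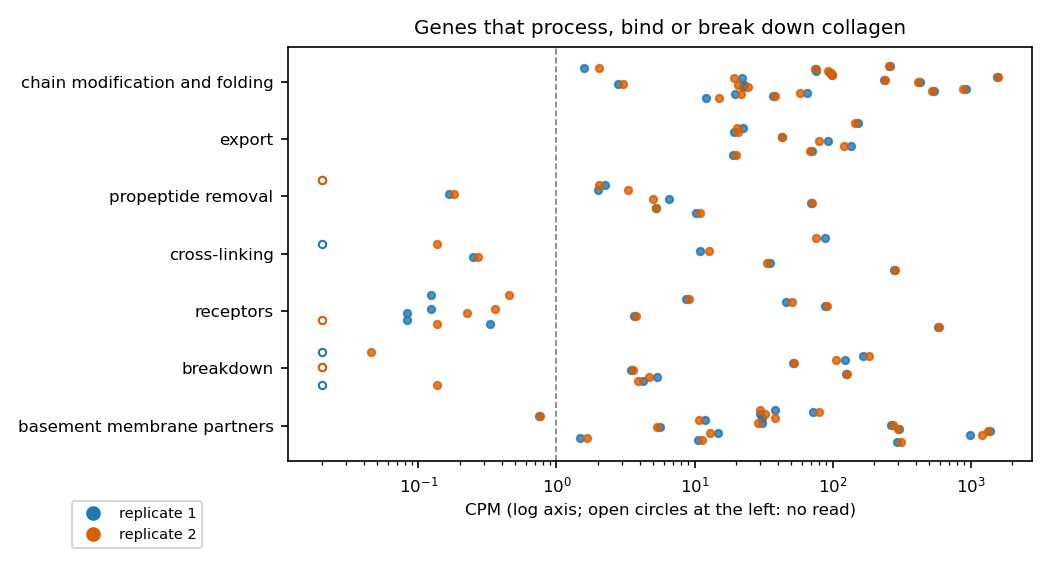
CPM (log axis) of the 77 genes of the 7 lists, with replicate 1 in blue and replicate 2 in orange, 1 row of points per list. The dashed line marks 1 CPM and open circles mark libraries without a read; all genes of chain modification and export lie to the right of the line, and 5 of the 10 receptor genes lie to its left.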

How the data were processed

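Polyadenylated RNA was made into libraries with a stranded mRNA kit, per the labels' protocols. Trim Galore 0.6.10, STAR 2.7.11a, Salmon 1.10.2 and DESeq2 are named, with GRCh38, in the submitters' processing notes, without their roles. Read counter and annotation are not given in the sources used here. The authors deposited TPM per transcript, named as made with salmon. Their gene table is named CPM, but its columns do not sum to 1000000. It holds a deposited signal, a number of reads over a constant for each library. All values (100%) were whole multiples of 1 read (tolerance 0.001 reads), so whole reads were recovered, and CPM was computed from them. TPM was summed per gene through GENCODE 29, which held 201667 of 251955 transcripts. Predictions of CPM used TPM times transcript length. Exon overlap used bedtools 2.31.1. The number of sample columns not used was 0.

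The members, classes and lists were chosen with earlier results of these data known. All members were described. From the lists were named the highest and lowest detected genes, those without a read and those apart between the libraries. One listed gene is not reported here by name. DDR1, DDR2, LOX, LAMA3 and the marker genes were added after their values were seen. With 1 group no test between conditions was possible. On the recovered reads edgeR 4.0.16 (binomTest, Benjamini-Hochberg adjustment) called 2008 of 15299 genes (13.1%), which compares these libraries and not conditions. Reads were also simulated with counting error only and no spread between libraries. On these reads, separate intervals recovered 90% of 200 genes changed 2-fold among 13900, and marked 92 of 13915 genes simulated without a change. The simulation does not cover spread between real libraries. Alternatives were other detection limits, pseudocounts, scalings, interval widths and TPM.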

Additional observations from a re-analysis of the deposited data

How the results depend on the processing

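No paired analysis was possible because both libraries belong to 1 group. The number of detected collagen genes was 38 at 0.1 CPM, where 3 reads suffice, and 26 and 27 with replicate 2 and replicate 1 taken alone. It was 19 at 5 CPM and 22 by TPM. The family's share was 0.116% of TPM against 0.343% of reads, and TPM is divided by length where reads are not. Each library alone gave 0.333% to 0.353%. The highest gene by mean held 17.1% of the collagen TPM (COL9A3, although COL23A1 held 17.6% in replicate 1 and COL4A2 17.7% in replicate 2) against 22.2% of the collagen CPM (COL4A2), and 21.3% to 23.2% in single libraries. At a log2 difference of 1, 0 collagen genes were apart against 3 at 0.5. The count was 4 with a pseudocount of 0.1 CPM and 2 by TPM (COL1A1 and COL3A1). With at least 5 TPM, 1 gene changed its leading transcript against 3, since fewer genes were compared. The counts of genes with separate intervals were 9 to 10 over the alternatives tried (99% intervals, TMM, DESeq2 1.42.0 size factors, deposited factors, binomTest, no filter), and the median difference was 0.083 to 0.12. Pathway genes detected ranged from 55 to 70. Depth limits the low end: the collagen genes not detected have at most 28 reads in a library.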
